A study of Homo sapiens with 16 samples.

Results

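The genes described here are 45 genes of the extracellular matrix, its integrin receptors and the mesenchymal state, taken by symbol from a count table of 37864 genes. All 45 were found, and all 45 were among the 17991 genes with enough counts to be tested. They are 9 interstitial and other collagens, 10 basement membrane genes, 7 matrix glycoproteins with hyaluronan synthesis, 2 crosslinking enzymes, 9 integrins, 3 other matrix receptors and 5 mesenchymal genes. RNA was sequenced from MDA-MB-231, an established line of human triple-negative breast cancer cells that the labels call epithelial. Cells had received the solvent DMSO, afatinib, paclitaxel or both drugs (the combination), with 4 libraries per group. Afatinib is an irreversible inhibitor of EGFR and its relatives, and paclitaxel binds and stabilises microtubules. The dose and the length of exposure are not given in the sources used here, and a single cell line stands for the tumour type.

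The extracellular matrix is the network of proteins and sugars that cells lay down and hold on to. Collagens give it tensile strength, type IV collagen and laminins form the basement membrane under epithelia, and fibronectin and hyaluronan fill the space around moving cells. Integrins are pairs of an alpha and a beta chain that bind these ligands and connect them to the cytoskeleton. Carcinoma cells that have gone through an epithelial-mesenchymal transition carry vimentin and mesenchymal cadherins in place of E-cadherin, under transcription factors such as SNAI2 and ZEB1.

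Levels are given as CPM (each library's counts scaled to a common total with TMM factors), and values of a group are listed for replicates 1, 2, 3 and 4 in that order. Changes are log2 fold changes ± SE from edgeR, with a call where the p adjusted by Benjamini-Hochberg over all tested genes was under 0.05. In bulk RNA, fewer cells with a transcript and less of it per cell cannot be told apart. The labels do not tell if replicates came from separate cultures, so p-values measure only the spread between these libraries, which may be technical.

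Levels in DMSO come first, and ranges below without a named group are over all 16 libraries. Per kb of gene length, AXL, a receptor tyrosine kinase of mesenchymal carcinoma cells, had the highest level of the 45 genes in DMSO (349 ± 50.6 CPM per kb). ITGB1, the beta chain shared by most matrix-binding integrins, followed with 237 ± 87.5 and VIM, the intermediate filament protein vimentin, with 225 ± 14.4 CPM per kb. As mean ± SD over the 4 DMSO libraries, AXL and VIM did not overlap, and ITGB1 overlapped both. COL4A2 (134 ± 60.0 CPM per kb) was the most abundant collagen. At the other end were SPARC with 0.130 ± 0.0144 and CDH2 with 0.0539 ± 0.0157 CPM per kb. CDH2, N-cadherin, had 4 to 15 counts per library, which limits its precision. In CPM, the unit of the next markers, CDH2 stood at 0.201 to 0.378 in DMSO, as low as E-cadherin. CDH1, the epithelial E-cadherin, stood at 0.0455 to 0.407 CPM and the oestrogen receptor ESR1 at 0.156 to 0.491 CPM. Other luminal breast markers were higher, with PGR at 3.8 to 6.44, EPCAM at 6.6 to 13.7 and GATA3 at 8.22 to 14.3 CPM. FOXA1 stood at 0.572 to 1.47 and KRT19 at 0.0232 to 0.229 CPM. Of the fibroblast markers, LUM (0 to 5 counts per library), COL3A1 (0 to 6), COL1A2 (0 to 4), PDGFRA (0 to 5) and FAP (0 to 2) were near 0, while THY1 had 5 to 34 and PDGFRB 82 to 301 counts. PDGFRB fell with paclitaxel (−0.50 ± 0.12, adjusted p = 0.00530) and in the combination (−0.75 ± 0.13, adjusted p = 3.07e-05), and the list summed to 2.52 to 8.66 CPM. Of the blood markers, PTPRC had 0 to 4 and CD3E 0 to 1 counts, while CD14 had 18 to 69. CD14 rose with paclitaxel (1.07 ± 0.19, adjusted p = 0.000160) and in the combination (0.51 ± 0.20, adjusted p = 0.0399), the latter call lost without DMSO replicate 2, 3 or 4 or combination replicate 2 or 4 (adjusted p up to 0.118). The 9 luminal breast markers, led by the keratins KRT8 and KRT18, summed to 937 to 1110 CPM in DMSO and 898 to 970 CPM with paclitaxel, and to 710 to 816 CPM with afatinib and 732 to 780 CPM in the combination. The 7 endothelial markers summed to 3.89 to 9.63 CPM in DMSO and 4.05 to 7.85 CPM with paclitaxel, and to 2.93 to 5.84 CPM with afatinib and 3 to 5.2 CPM in the combination, with EMCN at 0 to 3 counts. The part of any of these lists in the treatment results was not tested.

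As a group, these genes differed more between replicates than between treatments. In the labels, RNA concentrations were 346 to 1291 ng/µl for replicates 1 and 2 of the groups. They were 118 to 330 ng/µl for replicates 3 and 4. These pairs are called the high and low concentration sets here. The 45 genes took 1.03 to 1.29% of the counts in the 8 libraries of the high set and 1.72 to 2.39% in the 8 of the low set. The sets did not overlap. Of the 45 genes, 39 were higher in the low set and 1 was lower, where 69.5% of all tested genes were called in either direction and 36.2% were called higher. The members' median was 0.98 (log2, low minus high set) against 0.01 over all tested genes. FN1, which encodes fibronectin, had the largest difference at 1.45 ± 0.07, followed by COL7A1 at 1.26 ± 0.13 and ITGA2, an integrin chain for collagen, at 1.22 ± 0.09. Basement membrane genes were higher in 10 of 10, integrins in 9 of 9 and collagens in 8 of 9.

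Of the 5 mesenchymal genes 1 was higher in the low set, the cadherin CDH11 (0.63 ± 0.05, adjusted p = 9.84e-12). SNAI2 was lower in the low set (−0.27 ± 0.05, adjusted p = 5.87e-05), and VIM (0.06 ± 0.05), ZEB1 (−0.09 ± 0.04) and CDH2 (0.55 ± 0.25) were not called. Outside that group, COL5A2 (0.08 ± 0.09) and FBLN1 (0.16 ± 0.07) were not called either. The SPARC call was lost without DMSO replicate 1 or afatinib replicate 1 or 4 or paclitaxel replicate 2 or 4 or combination replicate 2 or 4 (adjusted p = 0.0525 to 0.111). ZEB1 was called lower without DMSO replicate 1, 2 or 3 or afatinib replicate 1 or combination replicate 1, 2 or 3 (adjusted p = 0.00362 to 0.0437), CDH2 higher without DMSO replicate 3 or afatinib replicate 2 or 4 or paclitaxel replicate 1 or 3 or combination replicate 2 (adjusted p = 0.0249 to 0.0492) and FBLN1 higher without combination replicate 3 (adjusted p = 0.0463).

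**Figure D1:**
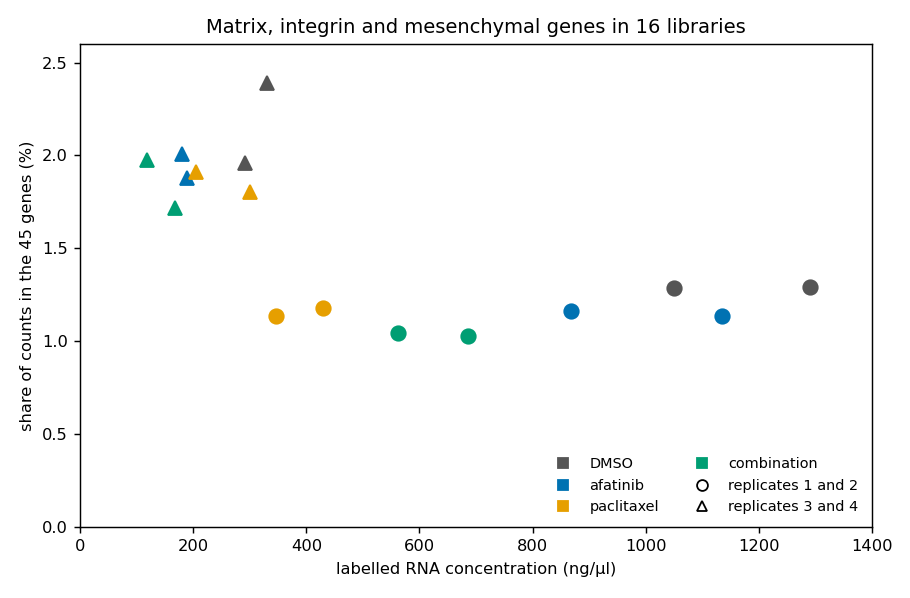
Share of each library's counts that fell in the 45 genes (vertical axis, %) against the labelled RNA concentration (horizontal axis, ng/µl), with 1 point per library, circles for replicates 1 and 2 and triangles for replicates 3 and 4. All 8 triangles lie at 1.72% or above and all 8 circles at 1.29% or below.

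Labelled concentration and set go together. The paclitaxel libraries of the high set had 346 and 430 ng/µl and a share of 1.13 and 1.18%. The DMSO libraries of the low set had 292 and 330 ng/µl and a share of 1.96 and 2.39%. Gene length differed too: the members' median length was 7910 bases against 4005 for all tested genes, and 29 of the 45 were among the 4498 longest tested genes. Among those 4498 the median difference between sets was 0.16 over all genes and 1.04 over the 29 members. The part of length, concentration or any other property of the sets in these differences was not tested. The main comparisons of treatments below therefore have the set as a term. Changes within each set are given for part of the genes. DMSO replicate 4 had the highest summed level of the 45 genes (25561 CPM), and combination replicate 4 (22066 CPM) was the highest of the treated libraries.

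**Figure D2:**
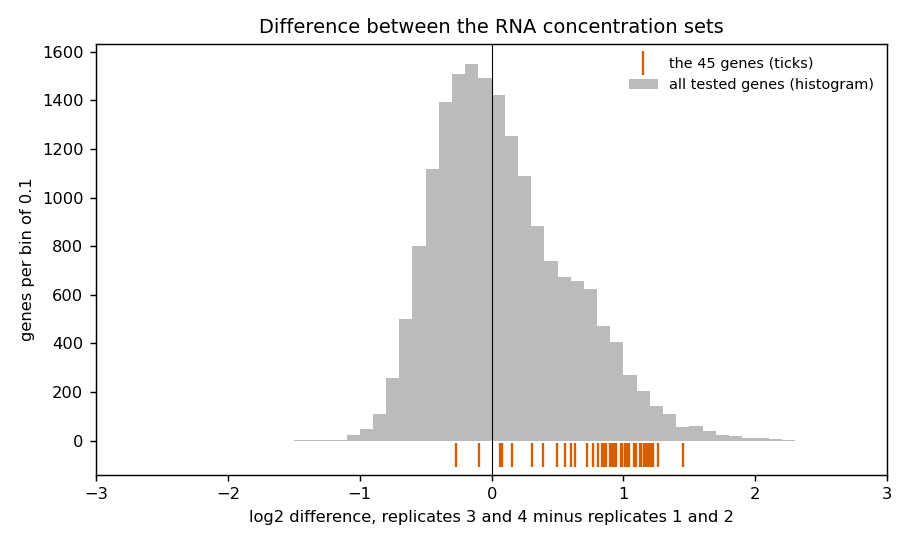
Distribution of the log2 difference between replicates 3 and 4 and replicates 1 and 2 over all 17991 tested genes (grey histogram, genes per bin of 0.1), with a tick below the axis for each of the 45 genes. Most ticks lie in the right tail, with a median of 0.98, and 1 called member, SNAI2, lies on the left at −0.27.

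With the set as a term, more of these genes fell than rose in each treated group. The 45 genes were chosen with earlier results of these data known, which limits any reading of their counts beside all tested genes. With afatinib 18 of the 45 genes fell and 1 rose, beside 19.1% of all tested genes called in either direction and 10.1% called lower. With paclitaxel 16 fell and 2 rose (all genes: 20.5% called, 8.65% higher and 11.9% lower). In the combination 21 fell and 1 rose (all genes: 38.0% called, 19.5% lower). Median changes of the 45 genes were −0.22, −0.16 and −0.23, against −0.0034, −0.00087 and −0.0047 over all tested genes. In each set both treated libraries were below both DMSO libraries for 15 genes with afatinib, 15 under paclitaxel and 13 in the combination, where 14.9%, 14.3% and 19.7% of all tested genes showed this. Leaving out each library in turn kept 12 of 19 calls with afatinib, 12 of 18 with paclitaxel and 16 of 22 in the combination. Without combination replicate 4, 33 genes were called in the combination, 32 of them lower. With no term for the set the counts were 1, 0 and 1 for afatinib, paclitaxel and the combination. With log2 RNA concentration in place of the set they were 24, 34 and 37. The shares of all tested genes without the set term, with concentration or with a library left out were not computed. Mean labelled concentrations of DMSO, afatinib, paclitaxel and the combination were 1171, 1002, 388 and 623 ng/µl in the high set. They were 311, 184, 252 and 143 ng/µl in the low set. DMSO had the highest mean in each, so concentration and treatment cannot be fully told apart.

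Of the 45 genes 32 were called in at least 1 of these 3 comparisons. COL13A1, COL4A1, COL4A2, LAMC1, ITGA3 and CDH11 fell in all 3. The hyaluronan synthase gene HAS2 was called in all 3 as well, with opposite directions for the drugs. LAMA3 was the only gene that rose with afatinib, and HAS2 and COL5A2 were the only genes that rose with paclitaxel. Another 13 were called in none: COL1A1, COL6A2, COL7A1, COL12A1, LAMA4, FBN1, FBLN1, LOX, ITGA2, ITGAV, CD44, CDH2 and ZEB1. The comparisons share the DMSO libraries. Counts by role below are to be read beside the shares of all tested genes given above.

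**Figure D3:**
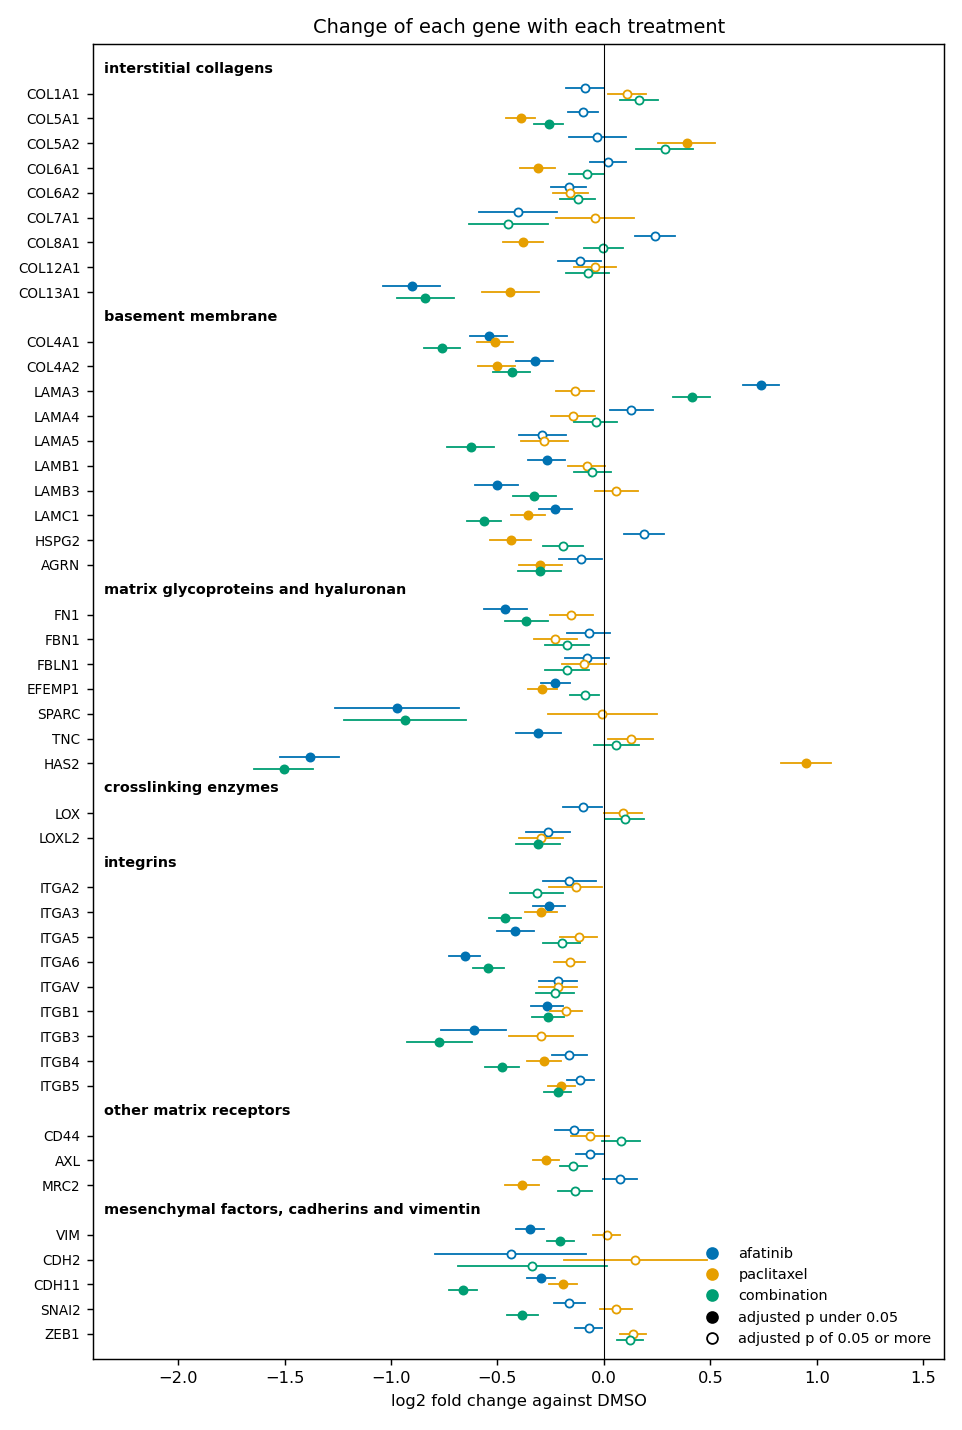
log2 fold change of each of the 45 genes against DMSO (horizontal axis) for afatinib, paclitaxel and the combination, grouped by role, with horizontal bars of ± 1 SE and filled points for adjusted p under 0.05. HAS2 lies on both sides of 0, at −1.38 with afatinib and 0.95 with paclitaxel, and LAMA3 is the filled point to the right with afatinib at 0.74.

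Promoter sequences are shown for the collagen with the largest fall, for the laminin that rose and for the neighbouring collagen pair that fell together. They come from RefSeq on GRCh38.p14, in lower case, 5′ to 3′ along the plus strand. Capitals mark matches, on either strand, to the AP-1 motif TGANTCA, the TEAD motif GGAATG, the GC box GGGCGG and the CAAT box CCAAT. COL13A1 is shown over the 250 bases before its start (chr10:69801656-69801905), where no motif matched. LAMA3 is shown over the 250 bases before the start of a shorter transcript (chr18:23872770-23873019), with 2 AP-1 matches and 1 GC box. The third sequence is the whole stretch of 126 bases between the RefSeq starts of COL4A1 on the minus strand and COL4A2 on the plus strand (chr13:110307158-110307283), with 1 CAAT box and 1 GC box.
COL13A1: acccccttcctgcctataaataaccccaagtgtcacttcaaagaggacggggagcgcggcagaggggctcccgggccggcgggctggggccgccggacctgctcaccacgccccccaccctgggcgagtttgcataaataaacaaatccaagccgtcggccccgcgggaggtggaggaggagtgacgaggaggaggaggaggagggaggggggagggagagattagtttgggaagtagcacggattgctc
LAMA3: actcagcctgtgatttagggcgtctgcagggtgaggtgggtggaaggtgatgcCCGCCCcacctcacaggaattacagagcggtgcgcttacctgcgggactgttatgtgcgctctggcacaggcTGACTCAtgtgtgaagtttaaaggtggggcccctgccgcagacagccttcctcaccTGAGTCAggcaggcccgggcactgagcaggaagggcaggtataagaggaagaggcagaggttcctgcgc
COL4A1-COL4A2: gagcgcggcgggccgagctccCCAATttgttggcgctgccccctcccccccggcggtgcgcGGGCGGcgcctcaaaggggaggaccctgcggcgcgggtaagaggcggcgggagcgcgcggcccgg
A promoter window was found for 31 of the 45 genes (49 windows of all 35116). The AP-1 motif was in 4 of the 49 windows (those of CDH2, ITGA5, LAMA3 and LAMB3) and in 7.7% of all windows. GC boxes were in 73.5% of the members' windows and in 45% of all windows, the TEAD motif in 14.3 and 14.0%, and the CAAT box in 16.3 and 34.6%. A match is a run of letters and was not tested as a binding site. COL5A2, ITGB3, EFEMP1, ITGB4, SNAI2, AGRN, COL1A1, COL6A1, CDH11, LOXL2, HAS2, MRC2, ITGA3 and COL8A1 had no window.

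Among the interstitial and other collagens, 1 of 9 fell with afatinib, 4 of 9 fell and 1 rose with paclitaxel, and 2 of 9 fell in the combination. COL13A1 (ENSG00000197467, chromosome 10, 69801867 to 69964275, GENCODE v29 on GRCh38) encodes a collagen that spans the cell membrane. COL13A1 stood at 111, 128, 203 and 286 CPM in DMSO and 58.9, 58.7, 137 and 145 CPM with afatinib. It stood at 81.3, 108, 150.0 and 183 CPM with paclitaxel and 66.5, 66.1, 116 and 159.7 CPM in the combination. In each set, both libraries of every treatment were below both DMSO libraries. COL13A1 fell with afatinib (−0.90 ± 0.14, adjusted p = 0.000371; −1.01 and −0.80 within the high and the low set) and in the combination (−0.84 ± 0.14, adjusted p = 0.000185; −0.85 and −0.82). Its fall with paclitaxel (−0.44 ± 0.13, adjusted p = 0.0313; −0.33 and −0.55) was lost without DMSO replicate 2 or 4 or paclitaxel replicate 1, 3 or 4 (adjusted p = 0.0665 to 0.107) and with no filter on low counts (0.0563).

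COL5A1 and COL5A2 encode 2 chains of type V collagen, which regulates the assembly of collagen fibrils, and they differed in direction with paclitaxel. COL5A1 stood at 159, 159, 268 and 349 CPM in DMSO and 146, 141, 314 and 281 CPM with afatinib. It stood at 126, 126, 221 and 232 CPM with paclitaxel and 131, 124, 255 and 282 CPM in the combination. With paclitaxel both libraries were below both DMSO libraries in each set. COL5A1 fell with paclitaxel (−0.39 ± 0.07, adjusted p = 0.000177) and in the combination (−0.26 ± 0.07, adjusted p = 0.00402), and its value was −0.10 ± 0.07 with afatinib. COL5A2 stood at 6.45, 4.84, 5.75 and 6.39 CPM in DMSO and 6.61, 4.92, 4.96 and 6.39 CPM with afatinib. It stood at 8.48, 6.36, 7.71 and 8.15 CPM with paclitaxel and 8.29, 5.38, 6.86 and 8.06 CPM in the combination. In the high set the paclitaxel and DMSO libraries overlapped, and in the low set they did not. COL5A2 rose with paclitaxel (0.39 ± 0.13, adjusted p = 0.0419), a call that did not hold without DMSO replicate 2, 3 or 4 or paclitaxel replicate 1, 3 or 4 (adjusted p = 0.0536 to 0.151) and with log2 concentration added to the set term (0.40, adjusted p = 0.173). Another fit took the replicate number as a block, a pairing that the labels do not state. In the fit with the replicate number as a block, COL5A2 was called with paclitaxel (adjusted p = 0.000641) and also in the combination (0.29 ± 0.13 without the block, adjusted p = 0.0982, and 0.00670 with it).

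COL6A1, a chain of the microfibrillar type VI collagen, fell with paclitaxel (−0.31 ± 0.08, adjusted p = 0.00914), and so did COL8A1, a short-chain collagen (−0.38 ± 0.09, adjusted p = 0.00609). COL6A2, the partner chain of COL6A1, differed by −0.17 ± 0.08, −0.16 ± 0.08 and −0.12 ± 0.08 under afatinib, under paclitaxel and under both. It was called lower without DMSO replicate 3 (adjusted p = 0.0144) with afatinib, without DMSO replicate 3 (adjusted p = 0.0179) with paclitaxel and without DMSO replicate 3 or combination replicate 4 (adjusted p = 0.0286 to 0.0418) in the combination. COL7A1, the collagen of anchoring fibrils, differed by −0.40 ± 0.18 with afatinib and −0.45 ± 0.18 in the combination without being called. With the replicate block it was called lower in both (adjusted p = 0.0113 and 0.00273), as it was in the combination without DMSO replicate 3 or paclitaxel replicate 3 or combination replicate 4 (adjusted p = 0.0216 to 0.0419). COL8A1 was called higher with afatinib without DMSO replicate 4 or afatinib replicate 4 or combination replicate 4 (adjusted p = 0.0239 to 0.0498), where its value over all libraries was 0.24 ± 0.09. COL1A1, a chain of the main fibrillar collagen, stood at 14.1 ± 3.04 CPM in DMSO (SD, n = 4) and differed by −0.09 ± 0.09, 0.11 ± 0.09 and 0.16 ± 0.09 in the 3 comparisons. COL12A1, which binds to fibril surfaces, differed by −0.11 ± 0.10, −0.04 ± 0.10 and −0.08 ± 0.10. Without combination replicate 1 COL1A1 was called higher in the combination (adjusted p = 0.0360), and without combination replicate 4 COL12A1 was called lower (0.0157).

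Of the 10 basement membrane genes, 5 fell and 1 rose with afatinib, 5 fell with paclitaxel, and 6 fell and 1 rose in the combination. COL4A1 (ENSG00000187498, chromosome 13, 110148963 to 110307233) and COL4A2 (ENSG00000134871, chromosome 13, 110305812 to 110513209) stand head to head and encode the alpha chains that form the type IV collagen network. COL4A1 stood at 263, 263, 489.6 and 638 CPM in DMSO and 182, 185, 388 and 374 CPM with afatinib. It stood at 183, 187, 359 and 427 CPM with paclitaxel and 147, 134, 322 and 408 CPM in the combination. Both libraries of every treatment were below both DMSO libraries in each set, and the combination had the lowest mean in each. COL4A1 fell under afatinib (−0.54 ± 0.09, adjusted p = 0.000107), under paclitaxel (−0.51 ± 0.09, adjusted p = 0.000139) and in the combination (−0.76 ± 0.09, adjusted p = 2.55e-07), and leaving out any library kept these calls. Inside the high and the low set the combination values were −0.90 and −0.62. COL4A2 fell under afatinib (−0.32 ± 0.09), under paclitaxel (−0.50 ± 0.09) and in the combination (−0.43 ± 0.09, adjusted p = 0.000402). Whether the 2 genes differed was not tested.

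LAMA3 (ENSG00000053747, chromosome 18, 23689443 to 23956222) encodes the laminin alpha chain of epithelial hemidesmosomes, which assembles with the product of LAMB3. LAMA3 stood at 13.1, 11.4, 20.4 and 24.4 CPM in DMSO and 18.5, 20.6, 38.7 and 39.1 CPM with afatinib. It stood at 11.9, 11.9, 16.6 and 21.7 CPM with paclitaxel and 15.6, 15.1, 29.9 and 33.2 CPM in the combination. The afatinib and combination libraries were above both DMSO libraries in each set, and paclitaxel libraries overlapped those of DMSO. LAMA3 rose with afatinib (0.74 ± 0.09, adjusted p = 1.49e-06; 0.68 and 0.79 inside the sets) and in the combination (0.41 ± 0.09, adjusted p = 0.000465; 0.32 and 0.50), and no left-out library ended either call. The combination value was 0.18, adjusted p = 0.233 with log2 concentration added to the set term, and −0.062 with log2 concentration in place of the set. In the authors' deposited corrected table it was not called either (limma, adjusted p = 0.608). With afatinib the value with the added term was 0.62, adjusted p = 1.36e-05. LAMB3 moved the other way: it fell with afatinib (−0.50 ± 0.10, adjusted p = 0.00136) and in the combination (−0.33 ± 0.10, adjusted p = 0.0139), the latter call lost without DMSO replicate 2 or 4 or combination replicate 1 or 3 (adjusted p = 0.0535 to 0.0696).

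LAMA5, LAMB1 and LAMC1 encode the alpha, beta and gamma chains of the most widespread laminin. LAMA5 stood at 356, 377, 627 and 876 CPM in DMSO and 244, 285, 683 and 708 CPM with afatinib. It stood at 272, 324, 559 and 693 CPM with paclitaxel and 199, 226, 494 and 593 CPM in the combination. In the combination both LAMA5 libraries were below both DMSO libraries in each set, which was not so with either drug alone. LAMA5 fell in the combination (−0.63 ± 0.11, adjusted p = 0.000184). It differed by −0.29 ± 0.11, adjusted p = 0.0754 with afatinib and −0.28 ± 0.11, adjusted p = 0.0814 with paclitaxel. With the replicate block these became calls (adjusted p = 0.00865 and 0.00799), as they did for afatinib without DMSO replicate 3 or paclitaxel replicate 3 (adjusted p = 0.00425 to 0.0466) and for paclitaxel without DMSO replicate 3 or paclitaxel replicate 2 (adjusted p = 0.00454 to 0.0380). LAMC1 fell with paclitaxel (−0.36 ± 0.08, adjusted p = 0.00193) and in the combination (−0.56 ± 0.08, adjusted p = 3.69e-06). Its fall with afatinib (−0.23 ± 0.08) was lost without DMSO replicate 1, 2 or 4 or any afatinib replicate or paclitaxel replicate 4 (adjusted p = 0.0539 to 0.168). LAMB1 fell with afatinib (−0.27 ± 0.09, adjusted p = 0.0318), a call that did not hold without DMSO replicate 1, 2 or 4 or any afatinib replicate (adjusted p = 0.0558 to 0.126).

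HSPG2, the heparan sulfate proteoglycan perlecan, fell with paclitaxel (−0.44 ± 0.09, adjusted p = 0.00208) and differed by 0.19 ± 0.09 with afatinib. In the combination it differed by −0.19 ± 0.09, adjusted p = 0.115, and it was called lower there without DMSO replicate 3 or combination replicate 4 (adjusted p = 0.00347 to 0.0104). AGRN, the related proteoglycan agrin, fell with paclitaxel (−0.30 ± 0.10), a call that did not hold without DMSO replicate 1, 2 or 4 or paclitaxel replicate 2, 3 or 4 (adjusted p = 0.0748 to 0.149). Its fall in the combination (−0.30 ± 0.10) was lost without DMSO replicate 1, 2 or 4 or combination replicate 1, 2 or 3 (adjusted p = 0.0515 to 0.101) and with the compared groups alone (0.0589). LAMA4, a laminin alpha chain of vessel walls, stood at 13.4 ± 6.20 CPM in DMSO (SD, n = 4) and was not called, with values of 0.13 ± 0.10, −0.15 ± 0.10 and −0.04 ± 0.10.

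Of the 7 matrix glycoprotein and hyaluronan genes, 5 fell with afatinib, 1 fell and 1 rose with paclitaxel, and 3 fell in the combination. HAS2 (ENSG00000170961, chromosome 8, 121612116 to 121641390) encodes the membrane enzyme that makes the long chains of hyaluronan. HAS2 stood at 3.77, 3.44, 4.5 and 4.32 CPM in DMSO and 1.22, 1.1, 2.00 and 1.96 CPM with afatinib. It stood at 6.16, 6.64, 9.48 and 9.0 CPM with paclitaxel and 1.04, 0.828, 1.86 and 2.11 CPM in the combination. All paclitaxel libraries were above, and all afatinib and combination libraries below, every DMSO library, across both sets. HAS2 fell with afatinib (−1.38 ± 0.14, adjusted p = 1.69e-07; −1.63 and −1.16 inside the sets), rose with paclitaxel (0.95 ± 0.12, adjusted p = 1.84e-06; 0.83 and 1.07) and fell in the combination (−1.50 ± 0.14, adjusted p = 3.58e-09; −1.95 and −1.14). No left-out library ended any of these calls. HAS2 rests on 42 to 385 counts per library. HAS2-AS1, transcribed from the other strand, shares 4.8% of its exon bases and had 2 to 24 counts. Whether the counting used strand was not given in the sources used here, so reads of the shared bases cannot be told apart.

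**Figure D4:**
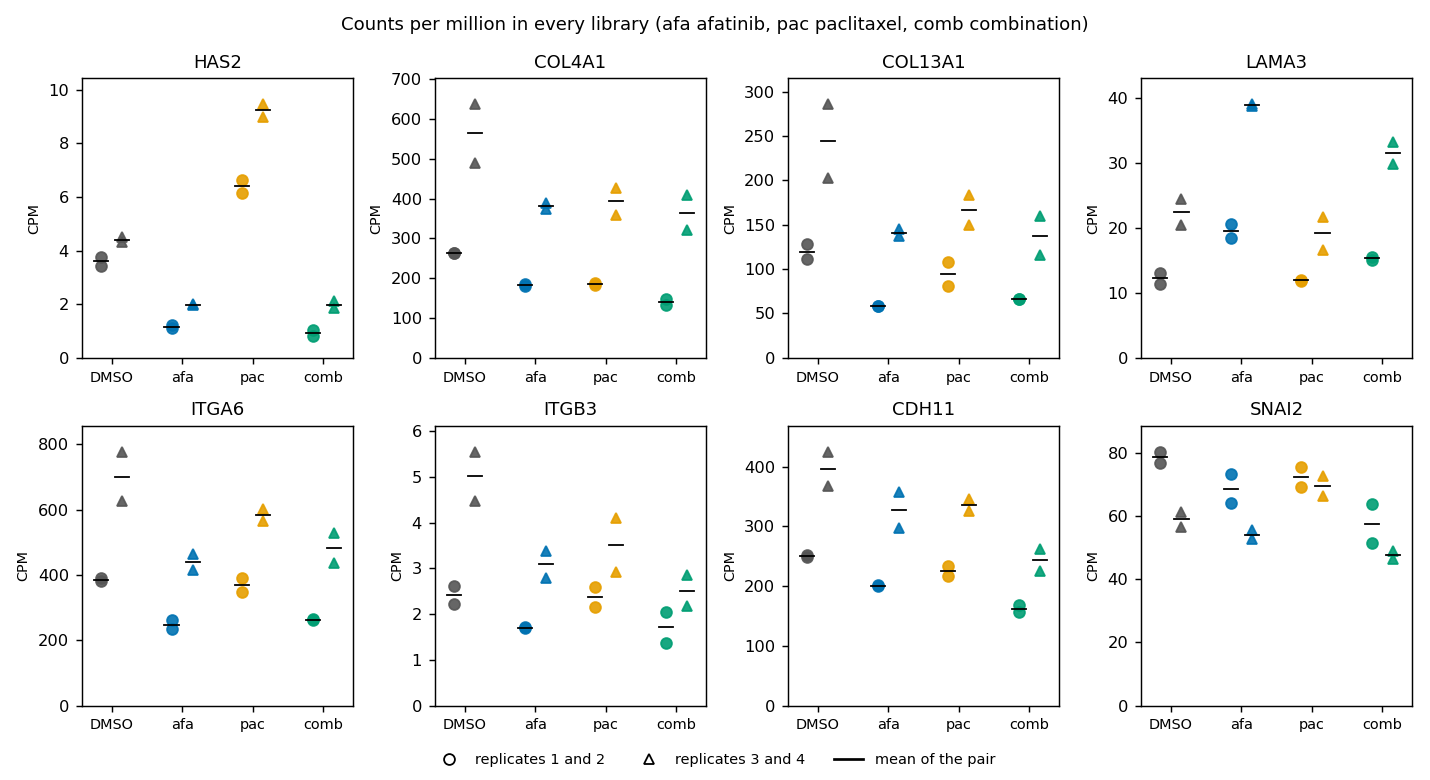
CPM (vertical axes, from 0) of 8 genes in every library, by treatment, with circles for replicates 1 and 2, triangles for replicates 3 and 4 and a bar at the mean of each pair. HAS2 lies between 6.16 and 9.48 with paclitaxel and between 0.828 and 2.11 in the combination, while for COL4A1 the triangles of every group lie above all circles.

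FN1 (ENSG00000115414, chromosome 2, 215360440 to 215436172) encodes fibronectin, the ligand of the integrin pair of ITGA5 and ITGB1. FN1 stood at 578, 476, 1175 and 1541 CPM in DMSO and 380.4, 382, 1028 and 947 CPM with afatinib. It stood at 482, 487, 1127 and 1257 CPM with paclitaxel and 359.8, 349.5, 1057 and 1348 CPM in the combination. With afatinib both libraries were below both DMSO libraries in each set, and in the combination this held in the high set. FN1 fell with afatinib (−0.46 ± 0.10, adjusted p = 0.00256; −0.46 and −0.46 inside the sets) and in the combination (−0.36 ± 0.10, adjusted p = 0.00643; −0.57 and −0.17). With paclitaxel it differed by −0.15 ± 0.10, adjusted p = 0.313.

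SPARC, a secreted protein that binds collagen, had few reads, with 8 to 30 counts per library. SPARC stood at 0.526, 0.669, 0.648 and 0.674 CPM in DMSO and 0.258, 0.313, 0.202 and 0.50 CPM with afatinib. It stood at 0.585, 0.320, 0.640 and 1.11 CPM with paclitaxel and 0.309, 0.217, 0.393 and 0.418 CPM in the combination. Afatinib and combination libraries were below both DMSO libraries in each set. The fall with afatinib (−0.97 ± 0.29, adjusted p = 0.0193) was lost without DMSO replicate 2 or afatinib replicate 3 (adjusted p = 0.0706 to 0.0960) and that in the combination (−0.94 ± 0.29, adjusted p = 0.0118) without DMSO replicate 2 (adjusted p = 0.0520). With log2 concentration added the values were −0.90, adjusted p = 0.0653 and −0.80, adjusted p = 0.165. With paclitaxel SPARC differed by −0.01 ± 0.26, with −0.40 and 0.36 within the high and the low set.

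TNC, the matrix glycoprotein tenascin-C, fell with afatinib (−0.31 ± 0.11, adjusted p = 0.0478), and this call was lost without DMSO replicate 1, 2 or 4 or any afatinib replicate or paclitaxel replicate 1, 2 or 4 or combination replicate 3 (adjusted p = 0.0501 to 0.156). In the combination TNC differed by 0.06 ± 0.11, and by −0.56 (adjusted p = 0.0152) with log2 concentration in place of the set. EFEMP1, an elastic fibre protein of the fibulin family, fell with paclitaxel (−0.29 ± 0.07, adjusted p = 0.00335) and with afatinib (−0.23 ± 0.07, adjusted p = 0.0195), the latter call lost without DMSO replicate 2 or 4 or afatinib replicate 4 (adjusted p = 0.0685 to 0.0834). In the combination EFEMP1 differed by −0.09 ± 0.07, and was called lower without combination replicate 4 (adjusted p = 0.0376). FBN1, the microfibril protein fibrillin, and FBLN1, a fibulin, were not called, with values of −0.23 to −0.07 and −0.17 to −0.08 over the 3 comparisons. FBN1 was called lower with paclitaxel without DMSO replicate 3 or combination replicate 4 (adjusted p = 0.0415 to 0.0464) and in the combination without combination replicate 4 (adjusted p = 0.0150).

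LOX and LOXL2 encode secreted oxidases that crosslink collagen and elastin. LOXL2 stood at 224, 242, 412 and 573 CPM in DMSO and 190.4, 193, 440.5 and 392 CPM with afatinib. It stood at 182, 192, 392 and 424 CPM with paclitaxel and 154, 167, 403 and 518 CPM in the combination. In the combination LOXL2 was below DMSO in the high set and overlapped it in the low set. LOXL2 fell in the combination (−0.31 ± 0.10, adjusted p = 0.0243; −0.54 and −0.09 inside the sets), a call that did not hold without DMSO replicate 1, 2 or 4 or combination replicate 1, 2 or 3 (adjusted p = 0.0595 to 0.110) and with log2 concentration added (−0.41, adjusted p = 0.0526). With paclitaxel it differed by −0.29 ± 0.10, adjusted p = 0.0514, and with the replicate block it was called lower (adjusted p = 0.0346), as it was without DMSO replicate 3 or afatinib replicate 4 or combination replicate 1 or 4 (adjusted p = 0.00317 to 0.0492). LOXL2 was called lower with afatinib without DMSO replicate 3 or combination replicate 4 (adjusted p = 0.00680 to 0.0154), where its value over all libraries was −0.26 ± 0.10. LOX stood at 31.0 ± 9.76 CPM in DMSO (SD, n = 4) and differed by −0.10 ± 0.09, 0.09 ± 0.09 and 0.10 ± 0.09, none called.

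All 9 integrin genes had negative changes in all 3 comparisons with DMSO, which share the DMSO libraries. The share of all tested genes that were negative in all 3 was not computed. Of the 9, 5 fell with afatinib, 3 under paclitaxel and 6 in the combination, where 10.1%, 11.9% and 19.5% of all tested genes were called lower. ITGA6 (ENSG00000091409, chromosome 2, 172427354 to 172506282) encodes the alpha chain of laminin receptors and pairs with ITGB1 or ITGB4. ITGA6 stood at 381, 389.6, 625 and 778 CPM in DMSO and 234, 262, 465 and 417 CPM with afatinib. It stood at 347, 391, 566 and 604 CPM with paclitaxel and 266, 261, 438 and 529 CPM in the combination. With afatinib and in the combination both libraries were below both DMSO libraries in each set. ITGA6 fell with afatinib (−0.65 ± 0.07, adjusted p = 9.16e-07; −0.63 and −0.68 inside the sets) and in the combination (−0.54 ± 0.07, adjusted p = 1.86e-06; −0.54 and −0.53), and no left-out library ended either call. With paclitaxel it differed by −0.16 ± 0.07, adjusted p = 0.127, and it was called lower without paclitaxel replicate 2 (adjusted p = 0.0444).

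ITGB4 encodes the beta chain of hemidesmosomes. ITGB4 stood at 164, 167, 292 and 385 CPM in DMSO and 145, 139, 329 and 303 CPM with afatinib. It stood at 135, 139, 265 and 288 CPM with paclitaxel and 104, 109.7, 241 and 296 CPM in the combination. With paclitaxel both ITGB4 libraries were below both DMSO libraries in each set, and in the combination this held in the high set. ITGB4 fell in the combination (−0.48 ± 0.08, adjusted p = 4.68e-05; −0.63 and −0.33 inside the sets). Its fall with paclitaxel (−0.28 ± 0.08, adjusted p = 0.0137) was lost without DMSO replicate 2 or 4 or paclitaxel replicate 3 (adjusted p = 0.0542 to 0.0575), and with afatinib it differed by −0.16 ± 0.08 and was called lower without DMSO replicate 3 (adjusted p = 0.0147). ITGA3, the other laminin-binding alpha chain, fell in the combination (−0.47 ± 0.08, adjusted p = 2.49e-05), with paclitaxel (−0.30 ± 0.08, adjusted p = 0.00645) and with afatinib (−0.26 ± 0.08, adjusted p = 0.0180), the last call lost without DMSO replicate 4 or afatinib replicate 2 or 4 (adjusted p = 0.0600 to 0.103).

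ITGB3 encodes the beta chain that pairs with ITGAV to bind vitronectin and fibronectin. ITGB3 stood at 2.61, 2.23, 4.47 and 5.56 CPM in DMSO and 1.69, 1.72, 3.39 and 2.80 CPM with afatinib. It stood at 2.16, 2.58, 2.93 and 4.11 CPM with paclitaxel and 2.04, 1.38, 2.17 and 2.86 CPM in the combination. With afatinib and in the combination both ITGB3 libraries were below both DMSO libraries in each set. ITGB3 fell with afatinib (−0.61 ± 0.15, adjusted p = 0.00576; −0.49 and −0.70 inside the sets) and in the combination (−0.77 ± 0.15, adjusted p = 0.000267; −0.51 and −0.98). These values are uncertain, since 51.57% of the exon bases of ITGB3 (70 to 207 counts per library) are shared with AC068234.1 on the same strand. ITGAV itself was not called, with −0.22 ± 0.09, −0.21 ± 0.09 and −0.23 ± 0.09. With the replicate block ITGAV was called in all 3 (adjusted p = 0.0398, 0.0359 and 0.0148). It was called lower in the combination without DMSO replicate 3 or paclitaxel replicate 2 or 3 or combination replicate 4 (adjusted p = 0.00181 to 0.0380), with paclitaxel without paclitaxel replicate 2 or combination replicate 4 (adjusted p = 0.0338 to 0.0428) and with afatinib without combination replicate 4 (adjusted p = 0.0365).

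ITGB1 fell with afatinib (−0.27 ± 0.08, adjusted p = 0.0134), a call that did not hold without DMSO replicate 4 (adjusted p = 0.0562), and in the combination (−0.26 ± 0.08, adjusted p = 0.00751). With paclitaxel it differed by −0.18 ± 0.08 and was called lower without DMSO replicate 3 or combination replicate 4 (adjusted p = 0.0348 to 0.0422). ITGA5, the alpha chain of the fibronectin receptor, fell with afatinib (−0.42 ± 0.09, adjusted p = 0.00149; −0.41 and −0.42 inside the sets). ITGA5 was not called in the combination (−0.20 ± 0.09, adjusted p = 0.0726, and 0.0205 with the replicate block), but was without DMSO replicate 3 or combination replicate 4 (adjusted p = 0.0121 to 0.0125). ITGB5, another partner of ITGAV, fell in the combination (−0.22 ± 0.06, adjusted p = 0.00822), a call that did not hold without DMSO replicate 4 (adjusted p = 0.0532). Its fall with paclitaxel (−0.20 ± 0.06) was lost without DMSO replicate 2 or 4 or paclitaxel replicate 2 or 4 (adjusted p = 0.0567 to 0.131). With log2 concentration added, ITGB5 was called in neither (−0.20, adjusted p = 0.104, and −0.19, adjusted p = 0.185). ITGA2 was not called, with −0.32 ± 0.12, adjusted p = 0.0591 in the combination. It was called there with the replicate block (adjusted p = 0.0106) and without DMSO replicate 3 or paclitaxel replicate 3 or combination replicate 4 (adjusted p = 0.000577 to 0.0394).

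Of the 3 other matrix receptors, 2 fell with paclitaxel and none was called with afatinib or in the combination. With afatinib the count was 0 at an unadjusted p under 0.05 in edgeR and 0 by DESeq2. In the combination both counts were 1, which is AXL by edgeR. AXL stood at 1648, 1519, 1931 and 2091 CPM in DMSO and 1549, 1514, 2046 and 1741 CPM with afatinib. It stood at 1306, 1275, 1704 and 1679 CPM with paclitaxel and 1350.0, 1348, 1858 and 2009 CPM in the combination. With paclitaxel both AXL libraries were below both DMSO libraries in each set. AXL fell with paclitaxel (−0.27 ± 0.06, adjusted p = 0.00250; −0.29 and −0.25 inside the sets), and differed by −0.07 ± 0.06 with afatinib and −0.14 ± 0.06, adjusted p = 0.0736 in the combination. Without combination replicate 4 the last of these was called (adjusted p = 0.0211). MRC2 encodes an endocytic receptor that takes up collagen. MRC2 stood at 47.2, 50.8, 95.2 and 123 CPM in DMSO and 50.1, 52.5, 125 and 106 CPM with afatinib. It stood at 37.4, 38.4, 80.6 and 84.5 CPM with paclitaxel and 38.2, 45, 96.7 and 114 CPM in the combination. The paclitaxel libraries were below both DMSO libraries in each set, and the afatinib libraries overlapped them. MRC2 fell with paclitaxel (−0.39 ± 0.08, adjusted p = 0.00104; −0.37 and −0.40 inside the sets). It was called lower in the combination without DMSO replicate 3 or combination replicate 4 (adjusted p = 0.0313 to 0.0360), where its value over all libraries was −0.14 ± 0.08. CD44, the hyaluronan receptor, differed by −0.14 ± 0.09, −0.06 ± 0.09 and 0.08 ± 0.09, none called.

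Of the 5 mesenchymal genes, 2 fell with afatinib, 1 under paclitaxel and 3 in the combination. CDH11 (ENSG00000140937, chromosome 16, 64943753 to 65126112), a cadherin of mesenchymal cells, fell in all 3 comparisons. CDH11 stood at 252, 248, 368 and 425 CPM in DMSO and 201, 199, 358 and 297 CPM with afatinib. It stood at 234, 218, 325 and 346 CPM with paclitaxel and 168, 157, 225 and 263 CPM in the combination. Both libraries of every treatment were below both DMSO libraries in each set, and the combination was lowest. CDH11 fell in the combination (−0.66 ± 0.07, adjusted p = 1.27e-08; −0.62 and −0.70 inside the sets) and with afatinib (−0.30 ± 0.07, adjusted p = 0.00208; −0.31 and −0.28). Its fall with paclitaxel (−0.19 ± 0.07, adjusted p = 0.0368) was lost without DMSO replicate 1, 2 or 4 or paclitaxel replicate 2, 3 or 4 (adjusted p = 0.0645 to 0.131).

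SNAI2, a transcription factor that represses E-cadherin, fell in the combination. SNAI2 stood at 80.5, 76.9, 61.4 and 56.6 CPM in DMSO and 73.3, 64.2, 52.6 and 55.5 CPM with afatinib. It stood at 75.4, 69.2, 66.4 and 72.7 CPM with paclitaxel and 63.7, 51.5, 48.9 and 46.4 CPM in the combination. In the combination, and with afatinib, both libraries were below both DMSO libraries in each set. SNAI2 fell in the combination (−0.38 ± 0.07, adjusted p = 0.000212; −0.45 and −0.31 inside the sets), and its value was −0.24, adjusted p = 0.0681 with log2 concentration added. It differed by −0.16 ± 0.07, adjusted p = 0.129 with afatinib and 0.06 ± 0.07 with paclitaxel. VIM stood at 1046, 1213, 1084 and 1126 CPM in DMSO and 906, 865, 898 and 844 CPM with afatinib. It stood at 1079, 1123, 1208 and 1099 CPM with paclitaxel and 898, 886, 1032 and 1066 CPM in the combination. In each set the afatinib and combination libraries were below both DMSO libraries. VIM fell with afatinib (−0.35 ± 0.06, adjusted p = 0.000416; −0.34 and −0.35 inside the sets). Its fall in the combination (−0.21 ± 0.06, adjusted p = 0.0127) was −0.34 and −0.07 inside the sets and was lost without DMSO replicate 2 or combination replicate 1 or 2 (adjusted p = 0.0676 to 0.107) and with log2 concentration added (−0.16, adjusted p = 0.205). VIM shares 12.43% of its exon bases with VIM-AS1, which had 32 to 89 counts against 29679 to 54336 of VIM. ZEB1, another repressor of E-cadherin, stood at 72.5 ± 4.08 CPM in DMSO (SD, n = 4) and was not called (−0.07 ± 0.06, 0.14 ± 0.06 and 0.12 ± 0.06). Without DMSO replicate 3 it was called higher with paclitaxel (adjusted p = 0.0216) and in the combination (0.0162). CDH2 differed by −0.44 ± 0.36, 0.15 ± 0.34 and −0.34 ± 0.35.

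**Figure D5:**
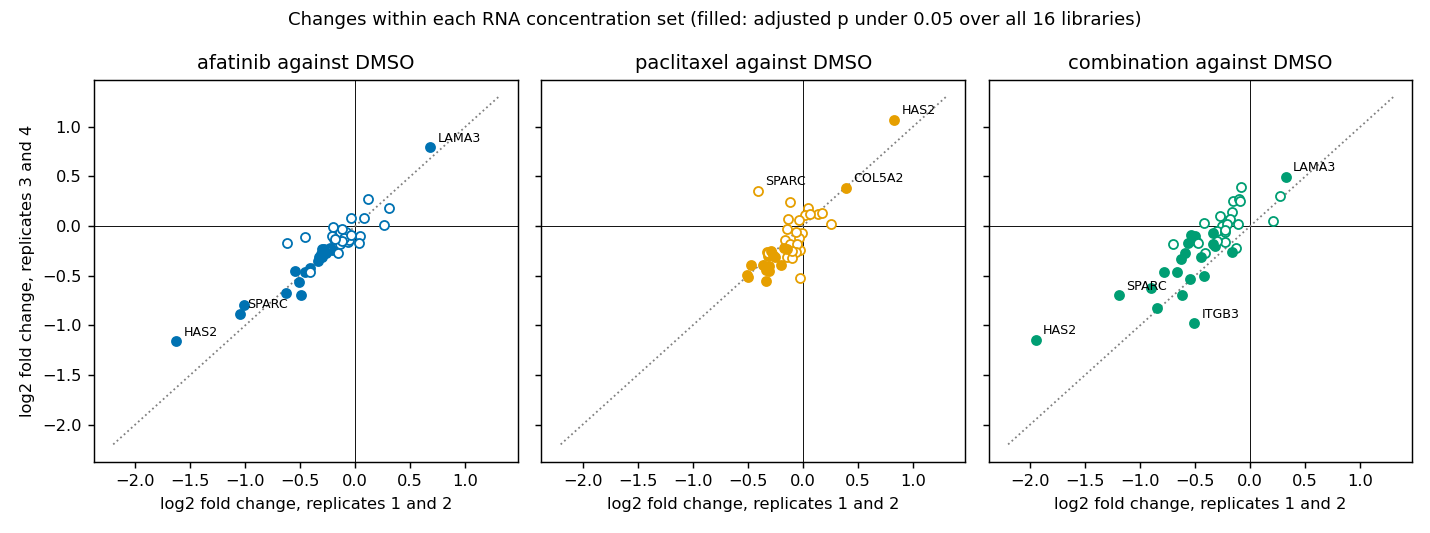
log2 fold change against DMSO within replicates 1 and 2 (horizontal axis) and within replicates 3 and 4 (vertical axis) for each of the 45 genes, in 3 panels by treatment, with filled points for genes called over all 16 libraries and a dotted line of equal change. In the afatinib panel 42 of the 45 genes have the same sign in both sets, against 41 with paclitaxel and 33 in the combination. The shares over all tested genes were not computed.

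The afatinib changes had the same sign in both sets for 42 of the 45 genes, those of paclitaxel for 41 and those of the combination for 33. The shares of all tested genes with the same sign were not computed, so these counts have no background beside them. In the combination the members' median was −0.34 within the high set and −0.16 within the low set. A test of the difference between the sets, added after the data were seen, called none of the 45 genes in any of the 3 comparisons (unadjusted p under 0.05 for 0, 1 and 11 genes, in edgeR). It called 0 of all tested genes in each of the 3 as well. The shares of all tested genes at that unadjusted p were not computed. In the fit to the low set alone, 4 of the 45 genes were called with afatinib, 1 under paclitaxel and 11 in the combination, beside 2.90%, 4.37% and 17.5% of all tested genes. In the fit to the high set alone, the counts were 20, 15 and 29, beside 6.94%, 9.92% and 26.1% of all tested genes.

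Between the combination and afatinib 3 of the 45 genes rose and 9 fell. This share, 26.7%, was near the 27.4% of all tested genes that were called. CDH11 fell (−0.37 ± 0.07, adjusted p = 0.000137; −0.31 and −0.42 inside the sets), as did LAMC1 (−0.34 ± 0.08, adjusted p = 0.00228), HSPG2 (−0.38 ± 0.09, adjusted p = 0.00444), ITGB4 (−0.32 ± 0.08, adjusted p = 0.00450) and LAMA3 (−0.32 ± 0.08, adjusted p = 0.00511). TNC rose (0.37 ± 0.11, adjusted p = 0.0139). No left-out library ended these 6 calls, and the TNC call was lost with log2 concentration added (0.29, adjusted p = 0.0793). The other 6 calls were each lost without some library. COL1A1 (0.26 ± 0.09) was lost without afatinib replicate 1, 3 or 4 or combination replicate 3 or 4 (adjusted p = 0.0578 to 0.164). ZEB1 (0.19 ± 0.06) was lost without afatinib replicate 1, 3 or 4 or combination replicate 3 (adjusted p = 0.0515 to 0.0724) and LAMA5 (−0.34 ± 0.11) without afatinib replicate 2, 3 or 4 or combination replicate 1, 2 or 3 (adjusted p = 0.0678 to 0.0961). SNAI2 (−0.22 ± 0.07) was lost without afatinib replicate 1 or 4 or combination replicate 2 or 4 (adjusted p = 0.0566 to 0.163) and ITGA3 (−0.21 ± 0.08) without DMSO replicate 1 or 2 or afatinib replicate 1, 3 or 4 or combination replicate 1, 2 or 3 (adjusted p = 0.0509 to 0.209). MRC2 (−0.21 ± 0.08) was lost without DMSO replicate 1 or 2 or afatinib replicate 1, 2 or 3 or any paclitaxel replicate or combination replicate 1, 2 or 3 (adjusted p = 0.0502 to 0.220). Another 13 genes were called when some library was left out: COL4A1, COL4A2, COL5A1, COL8A1, ITGA2 and AGRN without combination replicate 4, and CD44, COL5A2, EFEMP1, ITGA5, LAMB1, LOX and VIM without others. SNAI2 (adjusted p = 0.189), COL1A1 (0.148) and ZEB1 (0.0580) were not called with log2 concentration added, and ITGA3 (0.0549) and MRC2 (0.0603) not with RLE factors, nor MRC2 (0.0613) with DESeq2. With the replicate block 19 of the 45 genes were called, which added COL5A2, LAMB1, ITGA5 and CD44 as higher and COL5A1, COL8A1 and COL4A1 as lower (adjusted p = 0.00371 to 0.0487). The count fell to 7 without afatinib replicate 3. The shares of all tested genes with the block or with a library left out were not computed. In each set both combination libraries were above both afatinib libraries for 5 of the 45 genes and below them for 8, where 15.9% and 17.1% of all tested genes showed this. The members' median was −0.15 within the high set and 0.02 within the low set, against −0.0014 and −0.0023 over all tested genes. The added test of the difference between the sets called 0 of the 45 and 1 of all tested genes. Its unadjusted p was under 0.05 for 9 of the 45, in edgeR, and the share of all tested genes at that p was not computed.

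Between the combination and paclitaxel 5 of the 45 genes rose and 11 fell (35.6%), where 24.2% of all tested genes were called. The members' median was −0.20 within the high set and 0.07 within the low set, against −0.0071 and −0.0066 over all tested genes. The added test of the difference between the sets called 0 of the 45 and 0 of all tested genes. Its unadjusted p was under 0.05 for 14 of the 45, in edgeR, and the share of all tested genes at that p was not computed. HAS2 had the largest change of the 45 (−2.45 ± 0.13, adjusted p = 5.31e-12; −2.78 and −2.21 inside the sets), and all 4 combination libraries were below all 4 paclitaxel libraries. CDH11 (−0.47 ± 0.07, adjusted p = 1.03e-05), SNAI2 (−0.44 ± 0.07, adjusted p = 0.000119), ITGA6 (−0.38 ± 0.07, adjusted p = 0.000420) and LAMB3 (−0.38 ± 0.10, adjusted p = 0.00784) fell as well. LAMA3 (0.55 ± 0.09, adjusted p = 5.36e-05) and COL8A1 (0.38 ± 0.09, adjusted p = 0.00557) rose. These 7 calls were kept under each left-out library. In each set both combination libraries lay above both paclitaxel libraries for 3 of the 45 genes and below them for 8, where 15.9% and 14.7% of all tested genes did.

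The remaining 9 calls between the combination and paclitaxel were not. SPARC (−0.93 ± 0.29) was lost without paclitaxel replicate 1 or 4 or combination replicate 2 (adjusted p = 0.0617 to 0.115), VIM (−0.22 ± 0.06) without paclitaxel replicate 3 or combination replicate 1 or 2 (adjusted p = 0.0550 to 0.0789) and MRC2 (0.25 ± 0.08) without paclitaxel replicate 3 or 4 or combination replicate 2 or 4 (adjusted p = 0.0556 to 0.101). ITGB3 (−0.48 ± 0.16) was lost without paclitaxel replicate 1, 2 or 4 or combination replicate 2 or 3 (adjusted p = 0.0505 to 0.120) and LAMA5 (−0.35 ± 0.11) without paclitaxel replicate 2 or 4 or combination replicate 1, 2 or 3 (adjusted p = 0.0699 to 0.0923). EFEMP1 (0.20 ± 0.07) was lost without paclitaxel replicate 1, 3 or 4 or combination replicate 3 or 4 (adjusted p = 0.0509 to 0.189). COL4A1 (−0.25 ± 0.09) was lost without DMSO replicate 2 or paclitaxel replicate 1, 2 or 4 or combination replicate 1, 2 or 3 (adjusted p = 0.0507 to 0.172). COL6A1 (0.23 ± 0.08) was lost without afatinib replicate 4 or any paclitaxel replicate or combination replicate 2, 3 or 4 (adjusted p = 0.0507 to 0.173). COL13A1 (−0.40 ± 0.13) was lost without DMSO replicate 1 or 2 or afatinib replicate 1, 2 or 3 or paclitaxel replicate 1, 2 or 4 or combination replicate 1, 2 or 3 (adjusted p = 0.0548 to 0.122). The count fell to 9 without combination replicate 2, 10 without combination replicate 3 or paclitaxel replicate 1, and 8 without paclitaxel replicate 4. The shares of all tested genes in these fits were not computed. COL6A1 was not called with log2 concentration added (adjusted p = 0.0513), nor COL13A1 with no filter (0.131) or the compared groups alone (0.0658). With the replicate block COL7A1, LAMC1 and ITGB4 were called lower and HSPG2 higher (adjusted p = 0.00993 to 0.0433). The count was 19 without DMSO replicate 3, and COL7A1, FN1, HSPG2, ITGA2, ITGB4, LAMC1 and TNC were called when some library was left out.

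The interaction, which is the combination minus the sum of both single-drug changes, was called for 2 of the 45 genes and for 0.884% of all tested genes. HAS2 was lower in the combination than that sum (−1.07 ± 0.19, adjusted p = 0.00614; −1.15 and −1.05 inside the sets). The call was kept under each left-out library, with adjusted p of 0.00189 to 0.0269. EFEMP1 was higher than the sum (0.43 ± 0.10, adjusted p = 0.0358; 0.25 and 0.58), a call that did not hold without DMSO replicate 2 or 4 or afatinib replicate 2, 3 or 4 or paclitaxel replicate 1, 3 or 4 or combination replicate 2 or 3 (adjusted p = 0.0540 to 0.106). The HAS2 call did not hold with log2 concentration in place of the set (adjusted p = 0.0901) or in the authors' deposited corrected table with limma (0.0983). COL13A1 had 0.51 ± 0.19, adjusted p = 0.272, and 0.0388 with the replicate block. COL4A2 (0.40 ± 0.12) was called without DMSO replicate 3 (adjusted p = 0.0255).

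Other genes of the same pathways were counted by list, against the same shares of all tested genes. Of 21 tested genes of collagen folding and processing, 1 rose and 6 fell with afatinib, none rose and 5 fell with paclitaxel, and 2 rose and 6 fell in the combination. The shares called were 33.3, 23.8 and 38.1%, against 19.1, 20.5 and 38.0% of all tested genes, so the combination share was near that of all genes. The median was −0.05 in the combination. PLOD2, which hydroxylates lysines of collagen for crosslinking, fell with afatinib (−0.42 ± 0.08), paclitaxel (−0.51 ± 0.08) and in the combination (−0.90 ± 0.08, adjusted p = 1.36e-09). LOXL1, a relative of LOX, fell with paclitaxel (−0.60 ± 0.07, adjusted p = 1.65e-06) and differed by 0.04 ± 0.07 with afatinib. Of 12 other collagens, 1 rose and 2 fell with afatinib, 1 rose and 2 fell with paclitaxel, and 4 rose and 2 fell in the combination. The median of these 12 was 0.02 in the combination. COL6A3, the third main chain of type VI collagen, fell in all 3, by −0.66 ± 0.10 with paclitaxel. COL9A2 rose with afatinib (0.35 ± 0.09, adjusted p = 0.00884). Among 24 other glycoproteins and proteoglycans, 4 rose and 4 fell with afatinib, 2 rose and 4 fell with paclitaxel, and 4 rose and 7 fell in the combination. THBS1, thrombospondin, fell with afatinib (−1.33 ± 0.19, adjusted p = 0.000432) and in the combination (−1.61 ± 0.19, adjusted p = 2.40e-05).

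VCAN, the hyaluronan-binding proteoglycan versican, fell with afatinib (−1.34 ± 0.25, adjusted p = 0.000423) and in the combination (−1.15 ± 0.24, adjusted p = 0.000484), and rose with paclitaxel (0.58 ± 0.21, adjusted p = 0.0471). The last call was lost without DMSO replicate 2, 3 or 4 or afatinib replicate 3 or 4 or any paclitaxel replicate (adjusted p up to 0.173). Of 7 other laminins and basement membrane genes, 2 fell with afatinib, 1 rose and 1 fell with paclitaxel, and 1 rose and 2 fell in the combination. LAMA1 rose with paclitaxel (0.85 ± 0.13, adjusted p = 5.55e-05). Among 6 other integrins none was called with afatinib (1 at an unadjusted p under 0.05 in edgeR, and 0 by DESeq2), 1 rose and 1 fell with paclitaxel, and 1 rose in the combination. ITGA1 fell with paclitaxel (−0.38 ± 0.09, adjusted p = 0.00238). ITGA7 rose with paclitaxel (0.62 ± 0.20, adjusted p = 0.0298), a call lost without DMSO replicate 1 or 3 or paclitaxel replicate 1, 2 or 3, and in the combination (0.70 ± 0.20, adjusted p = 0.00681), where it was lost without combination replicate 4 (adjusted p up to 0.148 and 0.0615).

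Focal adhesion adaptors connect integrins to actin. Of 22 tested, 1 rose and 10 fell with afatinib, 3 rose and 5 fell with paclitaxel, and 3 rose and 10 fell in the combination. CAV1, the coat protein of caveolae, fell in the combination (−0.55 ± 0.06, adjusted p = 2.83e-08), and LPP, a zyxin-family adaptor, did so too (−0.65 ± 0.08, adjusted p = 5.91e-07). TLN2, a talin, rose there (0.44 ± 0.06, adjusted p = 2.95e-06). Of 8 other mesenchymal genes, 2 fell with afatinib, 3 rose and 4 fell with paclitaxel, and 2 rose and 3 fell in the combination. SNAI1, which acts on E-cadherin as SNAI2 does, rose with paclitaxel (0.82 ± 0.11, adjusted p = 7.84e-06) and in the combination (0.49 ± 0.11, adjusted p = 0.00123), where SNAI2 fell. TGFB1I1, a paxillin relative, fell in the combination (−0.60 ± 0.05, adjusted p = 8.36e-10). Of 11 tested epithelial genes none rose and 2 fell with afatinib, none was called with paclitaxel (3 at an unadjusted p under 0.05 in edgeR, and 1 by DESeq2), and 3 rose and 2 fell in the combination. The 2 that fell with afatinib were the keratins KRT8 (−0.40 ± 0.06) and KRT18 (−0.43 ± 0.06). ESRP1, another gene of this list, differed by 0.47 ± 0.24 with afatinib and was not called (adjusted p = 0.176). In the combination 7 of the 11 epithelial genes had positive values, with a median of 0.15, so the keratins do not stand for the list.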

How the data were processed

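RNA-seq libraries of MDA-MB-231 cells were analysed, 16 in all and 4 per group. The deposited raw counts per gene and the gene lengths come from the authors' count table, made with STAR 2.7.5b and featureCounts of Subread 2.0.1 on hg38, per the submitters' processing notes. The annotation, strand setting, filters, doses and times are not given in the sources used here. A deposited log2 table, which the authors corrected for RNA concentration per its file name, was used as an alternative with limma. Libraries held 28366004 to 48108577 counts, and 171 genes without a symbol were not named.

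Genes were kept with filterByExpr (minimum count 10, minimum total count 15), scaled with TMM and tested with edgeR 4.0.16 in R 4.3.3 (robust quasi-likelihood F-test on all 16 libraries, with group and set as terms, Benjamini-Hochberg threshold 0.05). The set separates replicates 1 and 2 from replicates 3 and 4. SE is the absolute log2 fold change over the square root of F. Within-set values come from separate fits to each set. The test was checked on simulated data drawn without a difference between the sets, so the check does not cover that difference.

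Alternatives were DESeq2 1.42.0, RLE factors, no filter, no set term, log2 RNA concentration in place of or beside the set, the replicate number as a block, the compared groups alone, each set alone, the authors' log2 table (limma 3.58.1) and leaving out each of the 16 libraries. Deviations of libraries with the same number in different groups correlated at 0.367 to 0.704 (median 0.59, 24 pairs). Every pair thus exceeded 0.1, the limit of the rule used for pairing. Inside a set, differently numbered libraries correlated almost as much (0.384 to 0.67, median 0.496), and those of different sets at −0.662 to −0.296. Differently numbered libraries of a set passed the rule too, so it cannot tell pairing by number from the set. The labels do not say what a number stands for, so the replicate block is an assumed pairing. Libraries of 1 group had a chi-square per gene of 6.62 to 336, so none was a repeat of another within sampling noise.

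The 45 genes and all lists were chosen with earlier results of these data known. Values in every library are given for up to 3 genes per role, those called against DMSO with the largest change. Up to 3 genes of each wider list could be named, those with the smallest p in the combination. Positions are from GENCODE v29 and promoters from RefSeq.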

Additional observations from a re-analysis of the deposited data

Results flagged for a closer look

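For 2 of the 45 genes the change with afatinib differed between cells with and without paclitaxel, by the test of that difference in edgeR. For HAS2 the afatinib change was lower in the presence of paclitaxel by −1.07 (log2, adjusted p = 0.00614). That call did not hold with log2 concentration in place of the set (adjusted p = 0.0901). For EFEMP1 it was higher by 0.43 (adjusted p = 0.0358), a call that 10 of the 16 left-out libraries ended.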

How the results depend on the processing

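DESeq2 and RLE factors kept every count of called genes within 1.5 times, as did log2 concentration added to the set. With no set term the counts were 1 (afatinib), 0 (paclitaxel), 1 (combination against DMSO), 0 (against afatinib), 1 (against paclitaxel) and 0 (interaction). With log2 concentration in place of the set they were 34 for paclitaxel, 37 for the combination, 10 for the combination against paclitaxel and 0 for the interaction, and 2 genes turned in the combination against DMSO, LAMA3 to −0.062 and TNC to −0.56. The authors' corrected table gave 34, 35, 7 and 0 in the same order. Over all comparisons that table ended 20 calls of single genes and log2 concentration in place of the set ended 13. Between the combination and paclitaxel these include LAMB3 (adjusted p = 0.143 in the table) and COL8A1 (0.115 with concentration). Replicates 3 and 4 alone gave 4 (afatinib), 1 (paclitaxel), 11 (combination), 4 (against afatinib), 5 (against paclitaxel) and 0 (interaction), and replicates 1 and 2 alone gave 0 for the interaction. With no filter on low counts the combination against afatinib gave 20 and the interaction 8. With the replicate block, which lost no call, the combination against afatinib gave 19, and the other counts stayed within 1.5 times. The causes were not tested. The shares of all tested genes under these settings or with a library left out were not computed, except for each set alone against DMSO. Leaving out 1 library gave 14 to 23 (afatinib), 12 to 23 (paclitaxel), 17 to 33 (combination), 7 to 16 (against afatinib), 8 to 19 (against paclitaxel), 1 to 3 (interaction) and 39 to 42 (set). The interaction count was 1 without DMSO replicate 2 or 4, afatinib replicate 2, 3 or 4, paclitaxel replicate 1, 3 or 4 or combination replicate 2 or 3. The interaction needs all groups, and the set difference was not refitted where the set was replaced or split. SPARC and CDH2, with at most 30 and 15 counts per library, are limited by depth.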
